A study of Homo sapiens with 6 samples.

Results

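Iron storage, iron uptake and haem breakdown were followed through 10 named genes in the THP1 line: FTH1, FTL, NCOA4, TFRC, STEAP3, HMOX1, BLVRB, ACO1, IREB2 and FBXL5. They were chosen by name, and all 10 had a matched transcript and passed the filter on low counts, among 34905 genes with a matched transcript and 14497 tested. THP1 is a monocytic cell line from a human acute myeloid leukaemia. Polyadenylated RNA was sequenced from 6 libraries in 3 labelled groups of 2. ALKBH5 rescue is the label for cells in which ALKBH5, an RNA N6-methyladenosine demethylase, was to be restored after knock-down. The libraries labelled shALKBH5 carry the genotype entry for an ALKBH5 knock-down, and shCtrl is named as a hairpin control in the titles but carries the genotype entry wild-type. The labels do not give the number of hairpins or clones, nor the form of ALKBH5 that was restored. Separate cultures are not stated for the replicates, and p-values here therefore reflect the spread of these libraries alone, which may be technical.

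Cells keep spare iron in ferritin, a shell of heavy (FTH1) and light (FTL) chains, and take iron up through the transferrin receptor (TFRC). The iron regulatory proteins, encoded by ACO1 and IREB2, bind a hairpin called the iron-responsive element when iron is scarce, which blocks translation of ferritin mRNA and stabilises TFRC mRNA. FBXL5 marks the IREB2 protein for degradation when iron is plentiful, and in macrophages HMOX1 frees iron from the haem of engulfed red cells.

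The hairpins are shown because they are the regulatory sequence that the ferritin and TFRC transcripts share. They were found on the sense strand of GENCODE 29 protein-coding transcripts (GRCh38) as a C, any 5 bases and the 6-base loop CAGTGN, where the 5 bases before the loop could pair with the 5 after it, G-U pairs allowed. N stands for A, C or T, as a G at the last loop base was not searched for. Capitals mark the loop CAGTGN. The ferritin elements lie in the 5′ UTR, on 7 of 8 FTH1 protein-coding transcripts (chr11:61967574-61967601, minus strand) and on the 1 FTL transcript (chr19:48965336-48965363, plus strand). The TFRC elements found by this search lie in the 3′ UTR of 3 of 4 protein-coding transcripts on the minus strand, at chr3:196050979-196051006, chr3:196050575-196050602, chr3:196050510-196050537 and chr3:196050463-196050490, given in that order.
FTH1: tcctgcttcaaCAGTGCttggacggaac
FTL: tcttgcttcaaCAGTGTttggacggaac
TFRC site 1: attatcggaagCAGTGCcttccataatt
TFRC site 2: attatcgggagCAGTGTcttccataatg
TFRC site 3: tgtatcggagaCAGTGAtctccatatgt
TFRC site 4: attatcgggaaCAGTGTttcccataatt
Such letters were present in 3 of the 10 genes and in 214 of 19702 protein-coding genes (1.09%). For the other 7 genes the search says only that these letters were not found within an exon of their annotated protein-coding transcripts. The count over all protein-coding genes also kept letters that cross an exon junction. Elements with another loop or an unpaired base among the 5 stem pairs would be missed by this search.

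The libraries went against their labels in the targeted gene. ALKBH5 had 968, 1003 and 1097 CPM (counts scaled to a common library size) in the ALKBH5 rescue, shALKBH5 and shCtrl libraries numbered 2, against 13.6, 12.4 and 14.6 CPM in those numbered 1. Its level therefore followed the replicate number in the titles and not the labelled group, and groups are written below as labelled. Whether labels, numbers or files were exchanged before deposit was not tested, and such an exchange would change what each comparison below means. Estimated counts totalled 14534386 to 24857373 per library, and the 10 genes had 483 (BLVRB) to 145460 (FTL) of them. Between the numbers, in a fit with group as a term, edgeR's quasi-likelihood test with Benjamini-Hochberg adjustment called 6585 of 14497 genes (45.4%) at a threshold of 0.05. That count was 3915 without shALKBH5 number 1 and 4030 without shALKBH5 number 2.

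Of the 10 genes, 5 passed this test: FBXL5 and NCOA4 were higher in the libraries numbered 2, and HMOX1, FTL and FTH1 were lower. Across all genes 22.8% were called higher and 22.6% lower, so a share of 5 in 10 was close to the background. Fewer members were called without shALKBH5 number 1 or number 2, as were fewer of all genes. With group as a term, leaving out either library of a group estimates the difference between the numbers from the other groups only. Such fits are therefore not separate checks. The 5 genes called had no overlap between the numbers, which 28.6% of all genes showed in the higher and 29.1% in the lower direction. The median log2 fold change of the 10 genes was -0.09, against 0.01 over all genes. In bulk RNA, a change in the RNA of each cell and a change in the share of cells that express a gene cannot be told apart. What else differed between the numbers is not given in the labels, and the part of ALKBH5 in these differences cannot be told apart from it.

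**Figure D1:**
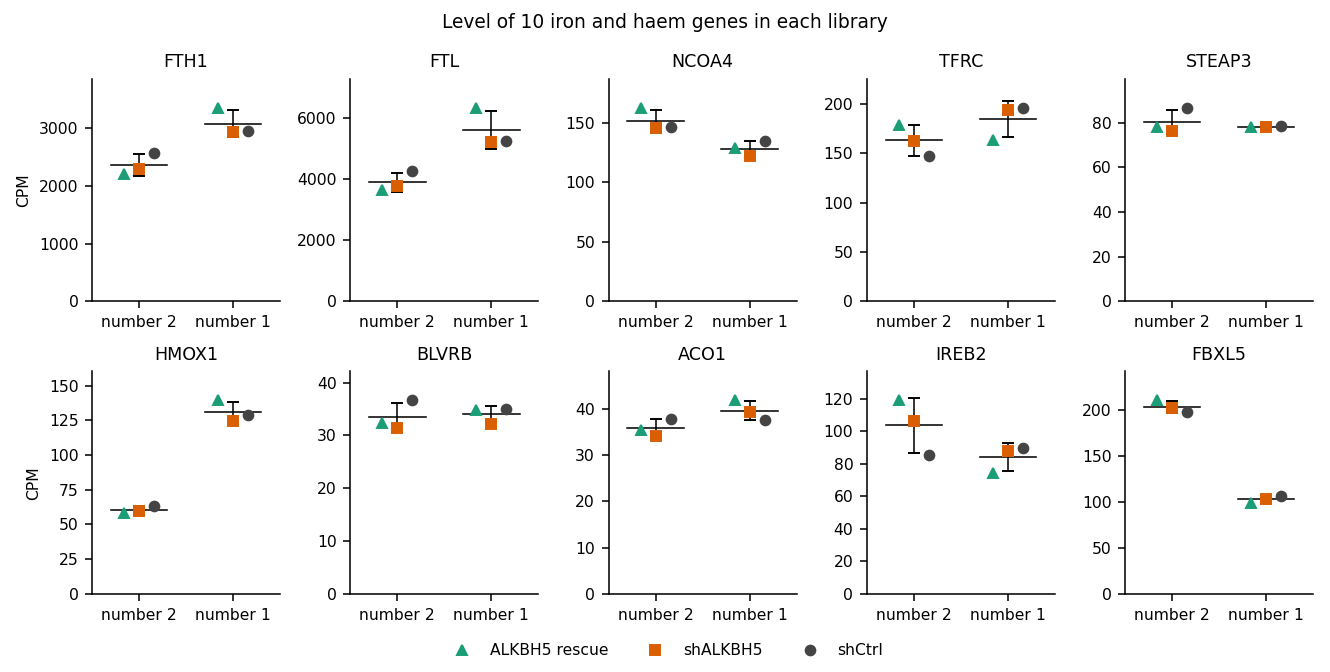
Level of each gene in CPM (vertical axes, linear, from 0) in the libraries numbered 2 and 1; symbols are the 3 labelled groups, and bars are mean ± SD of 3 libraries. HMOX1 lay between 58.5 and 63.3 CPM in number 2 and between 124 and 139 CPM in number 1, and FBXL5 lay between 197 and 210 CPM in number 2 and between 99.1 and 107 CPM in number 1.

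Ferritin transcripts were by far the most abundant of the 10 on a scale corrected for length. In TPM, FTL had a median of 8809 over the 6 libraries and FTH1 one of 7123. FBXL5 had a median of 110 TPM and HMOX1 one of 76.8 TPM, each pooled over numbers that differed. BLVRB, NCOA4 and TFRC had medians of 64.2, 58.6 and 56.3 TPM, and their ranges over libraries overlapped. STEAP3 and IREB2 were level at medians of 31.7 and 31.3 TPM, and ACO1 was lowest at 12.2 TPM. The place of HMOX1 changed with the number. In number 2 HMOX1 lay below BLVRB (63.5 to 69.6 TPM) and NCOA4 (61.2 to 70.0 TPM) in every library, and in number 1 it lay above both. FBXL5 had 137 to 159 TPM and HMOX1 51.7 to 53.7 TPM in number 2, while in number 1 FBXL5 had 76.1 to 83.8 TPM and HMOX1 100.0 to 110 TPM.

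Ferritin mRNA was lower in the libraries numbered 2. The FTH1 gene (ENSG00000167996.15, chr11:61959718-61967660, minus strand) encodes the heavy chain, which oxidises iron for storage. It had 2199, 2291 and 2572 CPM in the ALKBH5 rescue, shALKBH5 and shCtrl libraries numbered 2, against 3344, 2926 and 2951 CPM in those numbered 1. All 3 libraries of number 2 lay below all 3 of number 1, with the widest gap in ALKBH5 rescue. FTH1 fell by 23.4% (log2 fold change -0.39, SE 0.11, adjusted p = 0.0152). Leaving out shALKBH5 number 1 or number 2 kept the difference at -0.40 or -0.39 but raised the adjusted p to 0.142 or 0.165, in fits with 1 residual degree of freedom.

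The light chain, which helps iron mineralise inside the shell, is encoded by FTL (ENSG00000087086.14, chr19:48965301-48966878, plus strand). FTL had 3629, 3783 and 4242 CPM in the ALKBH5 rescue, shALKBH5 and shCtrl libraries numbered 2, against 6318, 5207 and 5252 CPM in those numbered 1. Again no library of number 2 reached the lowest of number 1. The difference was -0.52 on the log2 scale (SE 0.12, adjusted p = 0.00578), a drop of 30.4%, and within the groups it was -0.80 in ALKBH5 rescue, -0.46 in shALKBH5 and -0.31 in shCtrl. Without shALKBH5 number 2 it was -0.54 with an adjusted p of 0.059. The ratio of FTH1 to FTL in TPM was 0.835, 0.865 and 0.863 in the libraries numbered 2, against 0.747, 0.799 and 0.761 in those numbered 1, as a description with no test. The ferritins have many near-identical processed pseudogenes, so their counts are uncertain to the extent that reads were divided among copies. Here 25 FTH1 copies held at most 0.0706% of the summed FTH1 counts and 16 FTL copies at most 0.0116% of the summed FTL counts. BEST1 overlaps FTH1 on the opposite strand, and whether strand was used in the counting was not given in the sources used here. BEST1 had 19.1 to 23.0 CPM in number 2 and 12.9 to 17 CPM in number 1.

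NCOA4, the receptor that delivers ferritin to autophagosomes for iron release (ENSG00000266412.5, chr10:46005088-46030714, minus strand), went the other way. It had 162, 146 and 147 CPM in the ALKBH5 rescue, shALKBH5 and shCtrl libraries numbered 2, against 129, 122 and 135 CPM in those numbered 1. The numbers did not overlap, and shALKBH5 number 2 and shCtrl number 1 lay nearest to each other. The rise was 1.18-fold (log2 0.24, SE 0.08, adjusted p = 0.0368). This was the largest adjusted p of the 5 calls, and DESeq2 gave the same 0.24 with an adjusted p of 0.0705. The adjusted p was also 0.344 without shALKBH5 number 1, 0.295 without shALKBH5 number 2 and 0.0569 without ALKBH5 rescue number 1.

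Uptake genes gave no call in the fit of all 6 libraries. TFRC (ENSG00000072274.12, chr3:196027183-196082189, minus strand) had 179, 163 and 148 CPM in the ALKBH5 rescue, shALKBH5 and shCtrl libraries numbered 2, against 164, 194 and 196 CPM in those numbered 1. The numbers overlapped, because ALKBH5 rescue ran opposite to the other groups. The log2 fold change was -0.18 (SE 0.11, 95% interval -0.41 to 0.06, adjusted p = 0.196). It was 0.13 within ALKBH5 rescue, -0.25 within shALKBH5 and -0.41 within shCtrl. Leaving out either ALKBH5 rescue library gave -0.32, and leaving out either shCtrl library gave -0.05. The size of the TFRC difference therefore depended on the groups kept, and the fit of all 6 libraries does not settle it. STEAP3, the ferrireductase of erythroid endosomes that reduces iron released from transferrin (ENSG00000115107.19, chr2:119223831-119265652, plus strand), ran from 76.5 to 86.7 CPM in number 2 and from 77.9 to 78.4 CPM in number 1. Its difference was 0.04 (95% interval -0.15 to 0.23, adjusted p = 0.737). In TPM, STEAP3 was 32.5 to 33.0 in number 2 and 26.9 to 30.9 in number 1 with no overlap, whereas its CPM values overlapped.

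HMOX1, the inducible haem oxygenase that opens the haem ring and releases iron (ENSG00000100292.16, chr22:35380361-35394214, plus strand), had the largest difference of the 10. It had 58.5, 59.4 and 63.3 CPM in the ALKBH5 rescue, shALKBH5 and shCtrl libraries numbered 2, against 139, 124 and 129 CPM in those numbered 1. The highest library of number 2 was far below the lowest of number 1, and the labelled groups lay close together within each number. HMOX1 fell by 53.8% (log2 fold change -1.12, SE 0.09, 95% interval -1.31 to -0.92, adjusted p = 2.12e-05). The differences within ALKBH5 rescue, shALKBH5 and shCtrl were -1.25, -1.07 and -1.03, and fits that left out 1 library gave -1.15 to -1.04. HMOX1-201, its main protein-coding transcript, carried the difference, with 55.0 to 58.1 CPM in number 2 and 116 to 136 CPM in number 1. BLVRB, a biliverdin and flavin reductase that acts after haem oxygenase (ENSG00000090013.10, chr19:40447765-40465840, minus strand), did not follow it. BLVRB had 32.3, 31.4 and 36.6 CPM in the ALKBH5 rescue, shALKBH5 and shCtrl libraries numbered 2, against 34.8, 32.2 and 34.9 CPM in those numbered 1. Its log2 difference was -0.03 (95% interval -0.25 to 0.20, adjusted p = 0.856), and its sign turned to 0.02 without either ALKBH5 rescue library.

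**Figure D2:**
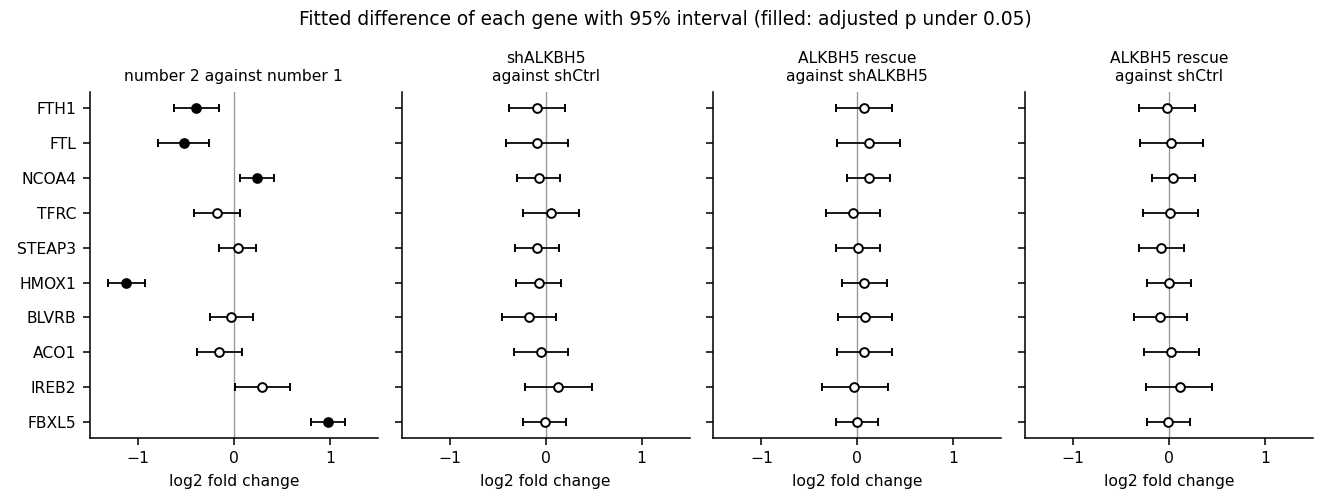
Fitted log2 fold change of each gene (horizontal axes) with its 95% interval in 4 comparisons; filled points passed an adjusted p of 0.05, and the 3 label comparisons are drawn from the fit with replicate number as a block. HMOX1 at -1.12 and FBXL5 at 0.98 lie farthest from 0 between the numbers, and every interval of the label comparisons spans 0.

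Neither sensor gene passed the test in the fit of all 6 libraries with the filter on low counts. ACO1, the cytosolic aconitase that becomes an iron regulatory protein when it lacks its iron-sulphur cluster (ENSG00000122729.18, chr9:32384603-32454769, plus strand), had 34.0 to 37.9 CPM in number 2 and 37.7 to 41.8 CPM in number 1. Its log2 difference was -0.15 (95% interval -0.38 to 0.08, adjusted p = 0.27). IREB2, which encodes the second iron regulatory protein (ENSG00000136381.12, chr15:78437431-78501456, plus strand), had 119, 106 and 85.3 CPM in the ALKBH5 rescue, shALKBH5 and shCtrl libraries numbered 2, against 74.5, 87.7 and 90.0 CPM in those numbered 1. The shCtrl library of number 2 lay within the range of number 1, so the numbers overlapped. The log2 difference was 0.29 (SE 0.13, 95% interval 0.01 to 0.58, adjusted p = 0.0835), made of 0.67 within ALKBH5 rescue, 0.28 within shALKBH5 and -0.08 within shCtrl. Leaving out either shCtrl library gave 0.49, and leaving out either ALKBH5 rescue library gave 0.11. Each of these values rests on the other groups only, whichever library of the group was left out.

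FBXL5 (ENSG00000118564.14, chr4:15604539-15681679, minus strand) encodes the iron-binding subunit of the ubiquitin ligase that targets IREB2. It had 210, 202 and 197 CPM in the ALKBH5 rescue, shALKBH5 and shCtrl libraries numbered 2, against 99.1, 103 and 107 CPM in those numbered 1. The numbers were far apart beside the spread within each, which was 6.59 CPM (SD) in number 2 and 3.90 CPM in number 1. FBXL5 rose 1.97-fold (log2 0.98, SE 0.08, 95% interval 0.80 to 1.16, adjusted p = 3.07e-05), and fits that left out 1 library gave 0.93 to 1.04. FAM200B, which overlaps FBXL5 on the opposite strand, had 10.3 to 13.9 CPM in number 2 and 10.3 to 14.1 CPM in number 1.

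The rise of FBXL5 lay mostly in the coding transcript FBXL5-211 and the retained-intron transcript FBXL5-205. FBXL5-211, its most abundant coding transcript, had 86.9, 71.2 and 93.1 CPM in the ALKBH5 rescue, shALKBH5 and shCtrl libraries numbered 2, against 50.5, 28.8 and 40.4 CPM in those numbered 1. FBXL5-205, a retained-intron transcript, had 56.8, 54.4 and 47.1 CPM in number 2 and 18.2, 16.3 and 19.5 CPM in number 1, in the same order of groups. Neither transcript overlapped between the numbers, as 28.6% of all genes did not in this direction. The share over all transcripts was not counted. FBXL5-205 held 23.8% to 27.0% of the gene's counts in number 2 and 15.7% to 18.4% in number 1. The protein-coding transcripts of FBXL5 summed to 137 CPM in number 2 and 74.4 CPM in number 1 on average, and the retained-intron transcripts to 53.0 and 18.1 CPM. These are divisions of shared reads among transcripts by the quantification, given with no test.

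**Figure D3:**
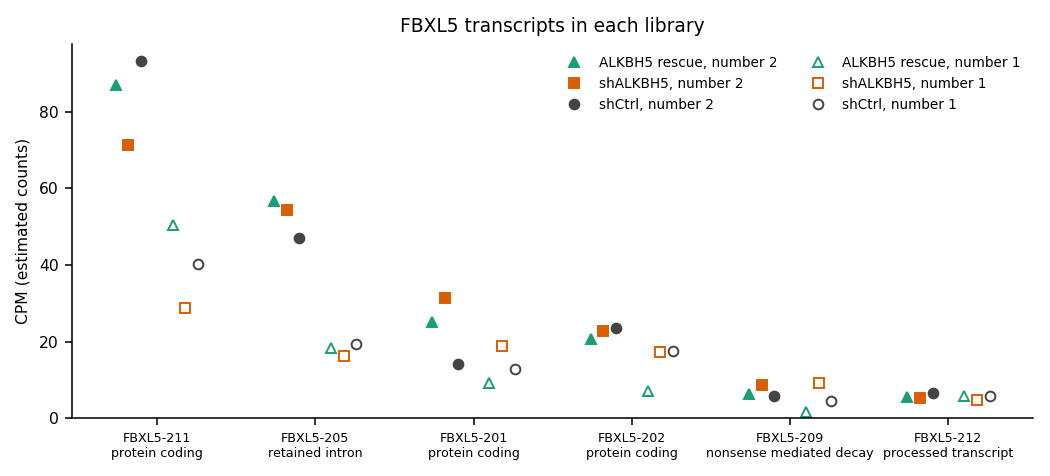
Level in CPM from estimated counts (vertical axis, linear) of the 6 most abundant FBXL5 transcripts with their annotated type; filled symbols are libraries numbered 2 and open symbols those numbered 1. FBXL5-211, FBXL5-205 and FBXL5-202 were higher in all 3 libraries numbered 2 than in any numbered 1, while FBXL5-201, FBXL5-209 and FBXL5-212 overlapped between the numbers.

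The counts of FTH1, TFRC and IREB2 were likewise divided among several transcripts. FTH1-206 and FTH1-212 held 35.6% to 40.4% and 37.8% to 39.8% of FTH1 counts in number 2, and 34.4% to 41.1% and 34.3% to 40.5% in number 1. FTH1-201 had 312 ± 20.2 CPM in number 2 and 491 ± 24.5 CPM in number 1 (SD, n = 3 each), with no overlap, as in 29.1% of all genes in this direction. FTH1-206 had 908 ± 118 CPM in number 2 and 1169 ± 140 CPM in number 1, and FTH1-212 had 916 ± 79.5 and 1178 ± 175 CPM. Libraries of the 2 numbers overlapped for both FTH1-206 and FTH1-212. TFRC-201 held 84.8% to 90.3% of TFRC counts in number 2 and 78.1% to 84.7% in number 1, while TFRC-202 held 7.19% to 10.9% and 12.7% to 18.5%. Both TFRC transcripts carry the 4 hairpins shown above. IREB2-203, an IREB2 transcript annotated for nonsense-mediated decay, had 17.9, 11.7 and 1.96 CPM in the ALKBH5 rescue, shALKBH5 and shCtrl libraries numbered 2, against 4.36, 1.87 and 6.95 CPM in those numbered 1. It was high in 2 of 3 libraries of number 2 and the numbers overlapped.

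The labelled comparisons were designed around a knock-down and its reversal, but ALKBH5 itself did not separate the labelled groups. They share libraries with each other, and each holds both ALKBH5 levels in every group. In shALKBH5 against shCtrl none of the 10 genes passed the test, and edgeR called 0 of 14497 genes (0%), while 38 genes had an unadjusted p under 0.05. DESeq2 called 0 as well. With replicate number as a block edgeR called 1 gene (0.0069%), which is not among the 10, and 347 had an unadjusted p under 0.05. FTH1 averaged 2609 ± 449 CPM in shALKBH5 and 2762 ± 268 CPM in shCtrl, and HMOX1 averaged 91.9 ± 46.0 and 96.2 ± 46.5 CPM (SD, n = 2 each). The log2 differences of the 10 genes ran from -0.17 (BLVRB) to 0.15 (IREB2), 3 above 0, with a median of -0.07 against -0.03 over all genes. BLVRB had 31.4 and 32.2 CPM in shALKBH5 and 36.6 and 34.9 CPM in shCtrl, and STEAP3 76.5 and 78.3 CPM in shALKBH5 and 86.7 and 78.4 CPM in shCtrl. These 2 genes were lower in shALKBH5 with no overlap, as were 8.17% of all genes, none of the 10 was higher with no overlap (9.3% of all genes), and with the block their 95% intervals were -0.45 to 0.11 and -0.32 to 0.14.

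For ALKBH5 rescue against shALKBH5, edgeR and DESeq2 each called 0 genes (0%), and 43 had an unadjusted edgeR p under 0.05. With the block edgeR again called 0, with 290 at an unadjusted p under 0.05. FTL averaged 4974 ± 1902 CPM in ALKBH5 rescue and 4495 ± 1007 CPM in shALKBH5 (SD, n = 2 each), a log2 difference of 0.15 with an SE of 0.31. It was 0.28 within number 1 and -0.06 within number 2, so the direction was not shared. TFRC was -0.24 within number 1 and 0.14 within number 2, and IREB2 was -0.24 and 0.16. NCOA4 was above 0 within each number, at 0.08 and 0.16, and BLVRB at 0.11 and 0.04. BLVRB was the only gene of the 10 whose libraries did not overlap, with 32.3 and 34.8 CPM in ALKBH5 rescue and 31.4 and 32.2 CPM in shALKBH5, as in 5.39% of all genes in this direction and 6.53% in the other. Its 95% interval with the block was -0.20 to 0.36. The median of the 10 differences was 0.08, with 8 above 0, against 0.01 over all genes.

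For ALKBH5 rescue against shCtrl, edgeR and DESeq2 each called 0 genes (0%), and 46 had an unadjusted edgeR p under 0.05. The block gave 1 call (0.0069%), not among the 10, with 239 at an unadjusted p under 0.05. The 10 differences had a median of 0.03 against -0.01 over all genes. IREB2 was -0.27 within number 1 and 0.48 within number 2, TFRC -0.26 and 0.28, FTH1 0.18 and -0.23, and FTL 0.27 and -0.23. In this comparison 8 of the 10 genes had opposite signs in the 2 numbers, all but BLVRB and STEAP3. In ALKBH5 rescue against shALKBH5 the count was 7 of 10, and in shALKBH5 against shCtrl 4 of 10. The share of all genes with opposite signs was not counted, so these counts do not set the 10 genes apart. BLVRB and STEAP3 were lower in ALKBH5 rescue with no overlap, as were 6.15% of all genes, and 3.98% were higher, with block intervals of -0.37 to 0.19 and -0.31 to 0.15. Intervals of this width do not show that the groups are alike.

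Other genes of iron and haem biology were described from 6 further lists. Of 22 genes of iron transport and binding, 17 were tested between the numbers, and 3 were higher, 5 lower and 9 not called in number 2, with a median of -0.07. The 8 calls among 17 genes stand beside 45.4% of all genes called. CYBRD1, a ferric reductase of the plasma membrane, averaged 24.4 ± 1.73 CPM in number 2 and 9.69 ± 0.307 CPM in number 1 (log2 1.33, adjusted p = 4.62e-05). SLC39A8, a divalent metal importer, was also higher (log2 0.49, adjusted p = 0.00254), and MCOLN1, a lysosomal cation channel, was lower (log2 -0.80, adjusted p = 0.000634). HEPH, a ferroxidase and 1 of the 5 lower calls, was at a very low level, with mean values of 0.091 CPM in number 2 and 0.601 CPM in number 1. It had 1 to 2 counts per library in number 2 and 7 to 14 in number 1. HEPH passed the filter on low counts only through number 1, so the direction of its call follows from the filter. Of 11 genes of haem transport and breakdown, 10 were tested, with 1 higher, 4 lower and 5 not called, and a median of -0.18, beside the same 45.4% of all genes. FLVCR2, a relative of the haem exporter FLVCR1, was lower (log2 -0.79, adjusted p = 0.000755), as were the biliverdin reductase BLVRA (log2 -0.58, adjusted p = 0.00211) and the haemoglobin scavenger receptor CD163 (log2 -0.33, adjusted p = 0.00731). FLVCR1 itself was the higher one (log2 0.61, adjusted p = 0.00402). Without shALKBH5 number 1 or number 2, fewer genes were called in the iron transport and haem transport lists, as were fewer of all genes.

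Haem synthesis gave 1 higher, 3 lower and 7 not called of 11 tested among 12 listed, with a median of -0.21, where 22.8% of all genes were called higher and 22.6% lower. PPOX, which makes protoporphyrin, averaged 26.4 ± 1.83 CPM in number 2 and 13.3 ± 0.588 CPM in number 1 (log2 0.98, adjusted p = 0.000141). ALAS1, the rate-limiting enzyme of the pathway outside red cells, averaged 229 ± 16.0 CPM in number 2 and 331 ± 16.1 CPM in number 1 (log2 -0.53, adjusted p = 0.00108). CPOX, a further enzyme of the route, was lower too (log2 -0.53, adjusted p = 0.00255). Among 22 genes of iron-sulphur cluster assembly, all tested, 11 were lower, 1 was higher and 10 were not called, with a median of -0.32 against 0.01 over all genes, of which 22.6% were called lower and 22.8% higher. NUBP1, ISCU and CIAPIN1 were lower by log2 differences of -0.85, -0.64 and -0.58 (adjusted p = 0.000794, 0.000902 and 0.00119). ISCU is the scaffold on which clusters are built, and NUBP1 and CIAPIN1 act in the cytosolic branch. FDXR, the reductase that feeds electrons to the pathway, was the 1 higher gene (log2 0.95).

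Of 8 partners of the iron regulatory system and other mRNAs with a known iron-responsive element, 2 were higher, 1 was lower and 5 were not called, with a median of 0.17, beside 45.4% of all genes called. CDC14A and CDC42BPA, whose mRNAs have such an element in the 3′ UTR, were higher (log2 1.06 and 0.75, adjusted p = 0.000212 and 0.000958). EPAS1, which encodes a hypoxia-inducible factor and has the element in its 5′ UTR, was lower (log2 -1.02, adjusted p = 0.000257). Of 15 genes of the NRF2 and BACH1 route, which in other cells controls HMOX1 and ferritin transcription, 1 was higher, 8 were lower and 6 were not called. Their median was -0.22 against 0.01 over all genes, of which 22.8% were called higher and 22.6% lower. NQO1, a quinone reductase, averaged 61.4 ± 2.93 CPM in number 2 and 188 ± 17.1 CPM in number 1 (log2 -1.61, adjusted p = 5.04e-06). PGD, an enzyme of the pentose phosphate pathway, was lower (log2 -1.61, adjusted p = 4.57e-06), as was SRXN1, which repairs peroxiredoxins (log2 -1.09, adjusted p = 5.57e-05). TXNRD1 was the 1 higher gene (log2 0.56), and NFE2L2 and BACH1 themselves were not called (log2 0.03 and 0.17, adjusted p = 0.765 and 0.205). In the 3 label comparisons, with and without the block, 0 genes of the 6 lists were called. List medians there ran from -0.07 to 0.07 in shALKBH5 against shCtrl, from -0.05 to 0.10 in ALKBH5 rescue against shALKBH5 and from -0.08 to 0.02 in ALKBH5 rescue against shCtrl.

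**Figure D4:**
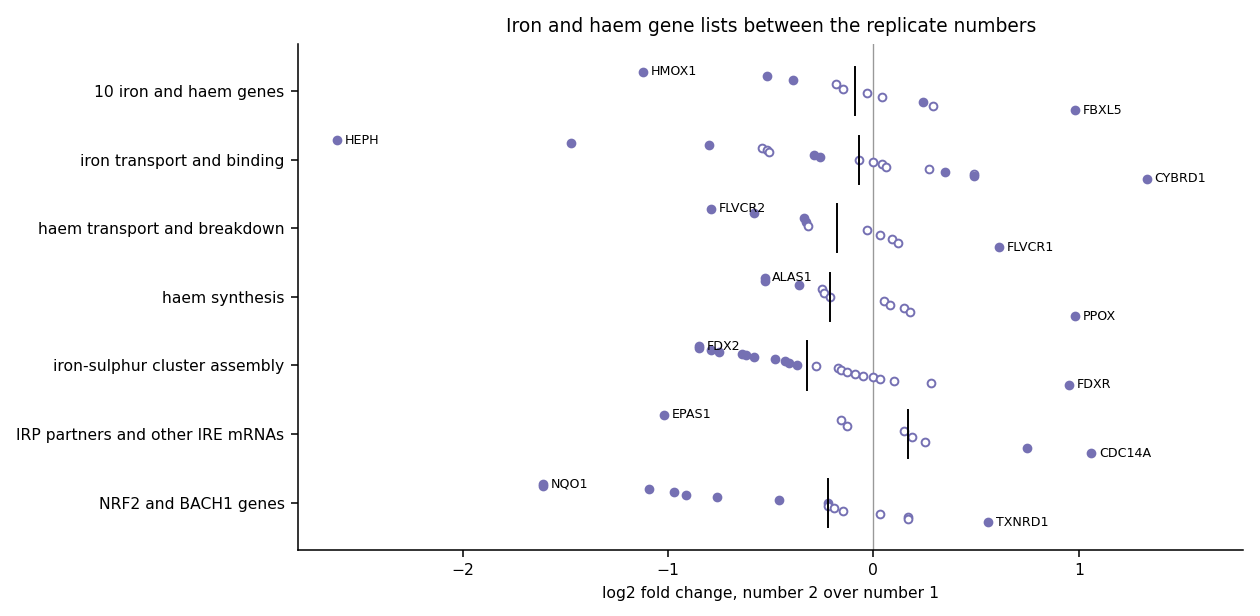
Fitted log2 fold change, number 2 over number 1 (horizontal axis), of each tested gene in the 10 genes and 6 further lists (rows); filled points passed an adjusted p of 0.05 and vertical bars are list medians. The median of iron-sulphur cluster assembly lies at -0.32 and that of the 10 genes at -0.09.

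The profile of some members over the 6 libraries was close to that of genes outside the lists. Likeness was the Euclidean distance between centred log2 CPM profiles among 10596 genes averaging 5 CPM or more, given as a description with no p. FTH1 was nearest to EEF1G (distance 0.00956) and POLD2 (0.0368), and RPL36 was close to FTL (0.0566). GRPEL1 was close to HMOX1 (0.0659), and TFRC was nearest to RWDD4 (0.0561) and LUC7L3 (0.076). EEF1G had 951, 991 and 1117 CPM in number 2 and 1449, 1269 and 1286 CPM in number 1, the order of libraries that FTH1 also had.

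Markers of the line and of other cell types were followed beside these genes. All 10 myeloid markers were tested and summed to 3254 to 3662 CPM in number 2 and 3038 to 3368 CPM in number 1, with 3 called higher and 3 lower, where 45.4% of all genes were called. Of 10 erythroid markers, 6 were at 0 in all libraries, HBA1, HBA2 and HBB among them, and the sum was 0.42 to 0.984 CPM in number 2 and 0.651 to 0.869 CPM in number 1. T cell markers summed to 0.42 to 0.861 CPM in number 2 and 1.26 to 1.66 CPM in number 1, with 2 of 6 at 0 throughout. The 1 tested, TRAC, was called lower (log2 -2.87), where 22.6% of all genes were. TRAC had 2 counts in each library of number 2 and 8 to 21 in number 1. It passed the filter on low counts only through number 1, so the direction of its call follows from the filter. B cell markers summed to 11.3 to 13.5 CPM in number 2 and 6.95 to 8.68 CPM in number 1, and 2 of the 3 tested were called higher, where 22.8% of all genes were. Of 8 epithelial and fibroblast markers, 3 were at 0 throughout, and their sum overlapped between the numbers, at 1.29 to 2.08 CPM in number 2 and 1.59 to 2.69 CPM in number 1. The part of these cells in the results was not tested.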

How the data were processed

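Polyadenylated RNA of 6 THP1 libraries was quantified by the authors, who deposited 1 table per library with the estimated count, the TPM value, the length and the effective length of each of 179973 transcripts, per the file headers. Per the submitters' processing notes, CASAVA, kallisto 0.43.1 and hg38 were used; options and strand use were not given in the sources used here. No molecular identifiers are mentioned, so reads are not independent molecules. Estimated counts from the deposited tables were summed per gene with GENCODE 29, which matched 163714 transcripts (91%), and rounded. The 16259 unmatched transcripts held 3.13% to 3.32% of counts and were left out. The deposited TPM values were summed per gene to compare levels between genes.

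The gene-level test was that of edgeR 4.0.16 under R 4.3.3 (TMM, filterByExpr, quasi-likelihood F test, Benjamini-Hochberg adjustment over 14497 genes). All 6 libraries entered each fit, with 3 residual degrees of freedom for the label comparisons and 2 with replicate number as a block or for the numbers. Standard errors were obtained by dividing the log2 fold change by the root of the F statistic. Gene counts varied by 27.7% (biological coefficient of variation) in fits lacking the block and by 10.6% in those that had it. Correlations of deviations from the group means between same-numbered libraries were 0.685, 0.597 and 0.727, all above 0.1. The numbers, which come from the titles, were used to pair the libraries only in the fits with the block. Fitted log2 differences of the label comparisons come from fits without the block unless stated, and those fits ignore the pairing. The labels name neither a day nor a batch. The chi-square statistic per gene between same-numbered libraries was 3.27 to 16.0, so no library was counted as a repeat deposit.

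The 10 genes, the lists and the comparison of the numbers were chosen with earlier results of these data known. Named genes were the 10 members, ALKBH5, up to 4 members per list by p and the 2 nearest profiles of FTH1, FTL, TFRC and HMOX1. Some genes that this rule names are not reported here. FDXR, TXNRD1, TRAC, NFE2L2 and BACH1 were named after their values were seen, as were BEST1 and FAM200B for their position. Alternatives were RLE size factors, DESeq2 1.42.0, no filter, a filter of 1 CPM in 2 libraries, an effective length offset, ferritin pseudogenes added to their parents, each library left out, the replicate block or no group term, and, added later, DESeq2 with the block.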

Additional observations from a re-analysis of the deposited data

Results flagged for a closer look

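The difference between number 2 and number 1 had opposite signs in the labelled groups for 5 genes, and these differences between groups were not tested. Each group has 1 library per number. TFRC had log2 differences of 0.13 in ALKBH5 rescue, -0.25 in shALKBH5 and -0.41 in shCtrl. IREB2 had 0.67 in ALKBH5 rescue, 0.28 in shALKBH5 and -0.08 in shCtrl. ACO1 had -0.24, -0.21 and 0.01 in the same order, BLVRB -0.11, -0.04 and 0.07, and STEAP3 0.01, -0.03 and 0.14.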

How the results depend on the processing

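Between the numbers, the 5 called members kept their direction in all settings. Fits without the library numbered 1 or numbered 2 of a group both rest on the other groups, so they are not separate checks. Leaving out 1 library, which leaves 1 residual degree of freedom, moved the total calls to between 3915 and 6811, the called members to between 2 and 6, the iron transport calls to between 5 and 10 and the haem transport calls to between 3 and 5. BLVRB then ran from -0.06 to 0.02, and without a filter on low counts it was 0.01 and IREB2 was called (0.33, adjusted p = 0.038). DESeq2 called 4793 genes and no group term 7276, with 5 calls in place of 3 in the list of iron regulatory partners. With the replicate block, which pairs libraries by number, edgeR called 1 gene in shALKBH5 against shCtrl and 1 in ALKBH5 rescue against shCtrl, and the block changed no other call. DESeq2 with the block, added after seeing the data, called 1 in shALKBH5 against shCtrl. In ALKBH5 rescue against shCtrl the block turned FTH1 to -0.02 (DESeq2 -0.01) and FBXL5 to -0.01, and the length offset turned HMOX1 to -0.01 and ACO1 to -0.01. In ALKBH5 rescue against shALKBH5 the offset turned IREB2 to 0.04 and STEAP3 to -0.04. In the label comparisons, leaving out 1 library leaves a group with 1 library of 1 number, assumed to vary like the other groups, so these ranges carry the difference between numbers. For shALKBH5 against shCtrl they were -0.27 to 0.08 for FTH1, -0.33 to 0.13 for FTL, -0.13 to 0.27 for TFRC, -0.69 to 0.53 for HMOX1, -0.15 to 0.05 for ACO1, -0.57 to 0.52 for FBXL5 and -0.21 to 0.05 for NCOA4. For ALKBH5 rescue against shALKBH5 they were -0.24 to 0.35 for FTH1, -0.31 to 0.48 for FTL, -0.17 to 0.07 for TFRC, -0.65 to 0.74 for HMOX1, -0.05 to 0.18 for ACO1, -0.39 to 0.29 for IREB2, -0.63 to 0.59 for FBXL5 and -0.07 to 0.28 for NCOA4. For ALKBH5 rescue against shCtrl they were -0.32 to 0.27 for FTH1, -0.38 to 0.40 for FTL, -0.19 to 0.21 for TFRC, -0.71 to 0.64 for HMOX1, -0.09 to 0.14 for ACO1, -0.24 to 0.44 for IREB2, -0.63 to 0.54 for FBXL5 and -0.14 to 0.21 for NCOA4. The 10 genes had at least 483 counts in each library, and the precision of the label comparisons rests on 2 libraries per group. The causes of these changes were not tested.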
